A study of Mus musculus with 18 samples.

Results

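The solute carrier (SLC) genes encode the transport proteins that carry sugars, amino acids, metals, ions, nucleotides and other small molecules across cell and organelle membranes. They were followed here at the level of open chromatin in B cells and T cells cut from mouse spleen. A region of the deposited table counted as a member when its nearest gene end within 50 kb belonged to a protein-coding gene whose symbol begins with Slc and a digit, with Slc4a8 and the Slco genes left out. This gave 339 regions at 193 genes, of 27396 regions in all, of which 25558 could be given to 1 of 13982 genes. The gene table holds 374 such solute carrier genes, and 181 of them had no region. The rule goes by symbol: Slc4a1ap, Slc7a6os and Slc9a3r1 are counted among the members although they are named after a carrier and are not carriers themselves.

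The study used ATAC-seq, in which a transposase cuts open DNA and tags it for sequencing, on fresh frozen spleen sections of wild-type C57BL/6J mice tagmented in place. Immunostained cells were then taken by laser capture microdissection in groups that share strain, genotype, tissue and treatment: 5 libraries of B patches, 5 of T patches, 4 of B cells at 100 nuclei and 4 of T cells at 100 nuclei. A patch library held pieces of tissue with about 1000 nuclei in all, so cells next to the stained ones can be in it, and a library of the small size held 100 nuclei taken singly. The libraries are technical replicates per the series' design text, and neither the number of mice nor the stained markers are given in the sources used here. The p-values therefore cover only how far libraries of a group lie from each other. They do not cover differences between animals, and could be larger if the animals could be counted. In such captures, fewer cells of a type and less open chromatin per cell cannot be told apart.

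Solute carriers are grouped into numbered families by sequence, and members of a family often share a class of substrate. Lymphocytes draw on them when they are activated: glucose enters through the SLC2 family, amino acids through families such as SLC1, SLC7 and SLC38, and lactate and pyruvate pass through the SLC16 family. Others work inside the cell, such as the SLC25 family in mitochondria and the SLC30 zinc exporters in the Golgi and vesicles.

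The libraries held 2193837 to 7343204 counts in patches and 319481 to 1076765 at 100 nuclei, mitochondrial counts included. Mitochondrial DNA took 18.8 to 33.6% of the counts in B patches and 16.1 to 23.1% in T patches. At 100 nuclei it took 29.4 to 45.8% in B and 24.3 to 33.6% in T. Member regions took 1.15 to 1.30% of the counts outside mitochondrial DNA in B patches and 1.21 to 1.25% in T patches, so the ranges overlapped. At 100 nuclei the member regions took 1.18 to 1.54% of those counts in B and 0.963 to 1.55% in T. Reads were found in 261 to 333 of the 339 member regions in B patches and in 254 to 334 in T patches, but in 94 to 128 in B and 31 to 127 in T at 100 nuclei. In patches the cell labels went with their markers: the 10 B cell genes summed to 772 to 1290 normalized CPM (counts scaled to a common library size) in B patches and 152 to 247 in T patches, and the 12 T cell genes with a region to 248 to 316 in B patches and 978 to 1239 in T patches. Summed markers of some other cells also lay apart. The 2 macrophage genes of 8 that had a region summed to 117 to 203 CPM in B patches and 18 to 80.2 in T patches. The 2 dendritic cell genes of 5 summed to 102 to 141 in B patches and 21.4 to 84.4 in T patches. Taken singly, 1 macrophage gene was called higher in B, and 0 dendritic cell genes were called. The 3 genes of 6 for stroma and endothelium summed to 76.7 to 124 CPM in B patches and 138 to 233 in T patches; 1 of the 3 was called higher in T, while the median log2 fold change of the 3 was 1.55, towards B. The 2 NK genes of 3 and the 2 erythroid genes of 8 overlapped between B and T patches, and none of 4 neutrophil genes had a region. At 100 nuclei the B cell genes summed to 564 to 1972 CPM in B and 0 to 299 in T, the T cell genes to 233 to 410 in B and 375 to 1661 in T, with overlap, the macrophage genes to 67.2 to 175 in B and 0 to 73.2 in T, and the dendritic cell genes to 41.4 to 234 in B and 0 to 30.8 in T. The part of these cells in the results below was not tested.

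The place of the member regions was compared with that of all assigned regions as a description, with no test. Of the 339, 58.7% were within 1 kb of a gene end, 24.2% deeper inside the gene and 17.1% outside it, against 53.4, 23 and 23.6% of the 25558 assigned regions. The median width was 216 bases, against 208 over all assigned regions. Most member genes, 112 of 193, had a single region, and Slc41a2 and Slc37a1 had the most with 6 each.

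In B patches against T patches, 5 of the 189 tested member genes differed when the counts of a gene's regions were summed (edgeR quasi-likelihood test, Benjamini-Hochberg adjusted p under 0.05 over all genes). That is 2.65% of the members, against 4.24% of the 13545 genes tested, so calls were not more frequent among the carriers than in the table as a whole. Slc16a7, Slc41a2 and Slc17a4 were higher in B patches, and Slc12a7 and Slc30a7 were lower there than in T patches. Of 324 tested member regions, 2 were called by themselves (0.617%), against 2.27% of 25712 regions. The median log2 fold change of B over T was −0.05 over the 189 members and −0.03 over all genes tested, with 46.6% of members and 47.8% of all genes above 0. With library size alone in place of TMM factors, 9 members (4.76%) were called, of which 3 were higher in B, against 4.5% of all genes, of which 40.7% were higher in B. In a joint fit of all 18 libraries 0 members and 0 of all 13545 genes were called, and with only regions within 1 kb of a gene end 0 of 145 members, against 0.637% of all genes. The 4 genes not tested, Slc15a5, Slc1a3, Slc7a13 and Slc7a7, were under the filter on low counts.

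**Figure D1:**
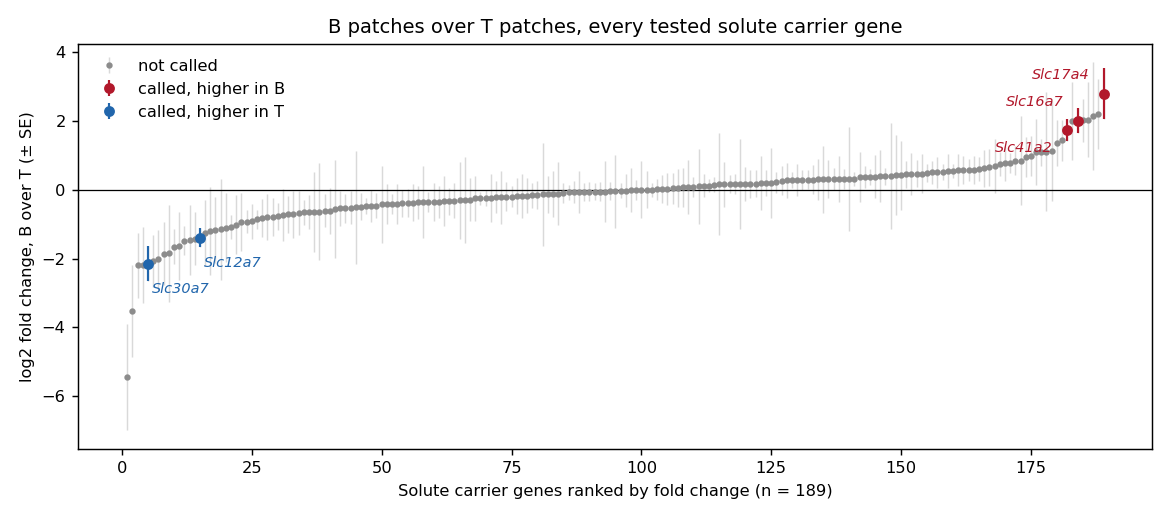
Log2 fold change of B patches over T patches with its standard error for each of the 189 tested solute carrier genes, ranked from lowest to highest. The 5 called genes are coloured (red, higher in B; blue, higher in T), and 153 of the 189 genes lie within 1 log2 unit of 0.

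Promoters are shown for the called genes that have an entry in the RefSeq table (build GRCm38.p6), since regions lie over or beside them: 146 of the 193 member genes matched an entry, while Slc16a7 and Slc17a4 are named only. Each run gives 250 bases before to 50 bases after an annotated start, 5′ to 3′ on the gene's strand. The capitals mark any match to 4 lymphocyte factor motifs searched on both strands, GGAAGT (ETS), TGTGGT (RUNX), CTTTGA (TCF and LEF) and CCCNNGGG (EBF).
Slc41a2: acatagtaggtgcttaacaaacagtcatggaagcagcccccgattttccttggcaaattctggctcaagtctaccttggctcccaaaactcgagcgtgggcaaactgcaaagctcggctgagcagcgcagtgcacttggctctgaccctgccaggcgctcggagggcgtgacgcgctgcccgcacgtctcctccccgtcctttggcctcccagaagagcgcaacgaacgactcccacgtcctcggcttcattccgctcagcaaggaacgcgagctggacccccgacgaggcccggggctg
Slc12a7: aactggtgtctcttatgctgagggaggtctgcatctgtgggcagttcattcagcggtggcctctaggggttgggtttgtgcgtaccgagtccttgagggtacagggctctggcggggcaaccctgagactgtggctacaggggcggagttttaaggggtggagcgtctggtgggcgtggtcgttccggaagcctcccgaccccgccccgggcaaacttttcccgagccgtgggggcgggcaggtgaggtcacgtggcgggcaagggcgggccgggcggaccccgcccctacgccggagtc
Slc30a7: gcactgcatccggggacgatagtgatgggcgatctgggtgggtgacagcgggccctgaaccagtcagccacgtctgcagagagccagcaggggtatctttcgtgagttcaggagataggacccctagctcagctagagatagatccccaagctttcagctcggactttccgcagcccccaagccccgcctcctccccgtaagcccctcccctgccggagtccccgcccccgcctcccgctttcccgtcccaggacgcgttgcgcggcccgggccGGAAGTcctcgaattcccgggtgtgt
The Slc41a2 window (chr10:83337768-83338067, minus strand) overlapped 2 member regions, the Slc12a7 window (chr13:73763410-73763709, plus strand) overlapped 1, and the Slc30a7 window (chr3:116007357-116007656, minus strand) overlapped none, with the nearest region of the gene 196 bases from the start. The Slc30a7 window held 1 match, to GGAAGT at bases 275 to 280, and the other 2 printed windows held none. Slc12a7 has another annotated start, whose window (chr13:73763447-73763746, plus strand) is not printed. It also overlapped 1 member region and held no match. Over all 32851 promoter windows of the table, the ETS motif was found in 23.8%, the RUNX motif in 16.8%, the TCF and LEF motif in 16% and the EBF motif in 13.7%. A match is a description of letters and not evidence that a factor binds.

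Among carriers of monocarboxylates, bile acids, peptides and organic ions, 1 of 16 tested genes was called, Slc16a7, which encodes a high-affinity transporter of pyruvate and lactate. Its 5 regions summed to 115.9, 213.0, 101.8, 122.3 and 108.9 normalized CPM in the B patches, against 27.8, 28.8, 15.2, 65.8 and 27.4 in the T patches. The lowest B library lay above the highest T library. The means were 132 ± 45.7 CPM in B and 33 ± 19.2 in T (SD over 5 libraries of each), a log2 fold change of 2.0 ± 0.36 (SE; edgeR adjusted p = 0.00285). One region inside the gene (chr10:125370010-125370498, mm10), 19.1 kb from a gene end, was called on its own. It held 28.7, 67.2, 37.3, 41.7 and 29.1 CPM in B patches, against 5.57, 1.2, 5.54, 8.23 and 11.95 in T patches, with a log2 fold change of 2.63 ± 0.61 (SE; adjusted p = 0.0249). Each B library there lay above each T library. The call of this region, though not that of the gene, was lost without any 1 of B patch libraries 2, 3 and 4 or T patch libraries 1 and 3, with an adjusted p of 0.0508 to 0.0677. The 3 regions within 1 kb of a gene end had log2 fold changes of 1.72 ± 0.66, 2.04 ± 1.01 and 3.42 ± 1.01, not called singly, and the region 45.8 kb from an end, with 4.45 and 6.15 mean CPM in B and T, had −0.46 ± 1.48.

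Slc16a1, a lactate transporter of the same family, ran the other way without passing the edgeR test with TMM factors. It had 35.8 to 56.2 CPM in B patches, with a median of 47.3, and 68.4 to 106.8 in T patches, with a median of 75.2. Its groups did not overlap, and the log2 fold change was −0.86 ± 0.28 (SE; edgeR adjusted p = 0.102). It was called by DESeq2 (adjusted p = 0.0334) and by edgeR with library size alone (adjusted p = 0.0383). Over the 16 tested genes of the group, fold changes ran from −1.85 to 2.13 with a median of 0.11, and 9 were above 0.

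Among the metal carriers, 2 of 22 tested genes were called, 1 in each direction. Slc41a2, a magnesium transporter, had 61.5, 64.7, 67.4, 72.7 and 79.8 CPM over its 6 regions in B patches, against 18.7, 22, 17.5, 25.9 and 20.4 in T patches. Both groups were narrow and far apart, with means of 69.2 ± 7.19 in B and 20.9 ± 3.28 in T (SD over 5 libraries of each) and a log2 fold change of 1.73 ± 0.32 (SE; edgeR adjusted p = 0.00388). All 5 of its tested regions had a positive fold change and none was called by itself. With only regions within 1 kb of a gene end, the value of Slc41a2 was 1.07 and was not called (edgeR adjusted p = 0.569). The region 6.0 kb from the gene end held 25.9 CPM in B and 2.28 in T on average (log2 fold change 3.47 ± 1.0), and the 2 regions over the printed promoter had 1.28 ± 0.85 and 0.35 ± 1.28. These 2 also lie within 1 kb of an end of Gm40722, and their reads cannot be split between the genes.

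Slc30a7, which moves zinc into the Golgi, had 5.23, 9.50, 21.2, 5.38 and 19.7 CPM in B patches, against 70.3, 64.0, 35.9, 67.6 and 33.9 in T patches. Every B library lay below every T library, and the log2 fold change was −2.15 ± 0.50 (SE; edgeR adjusted p = 0.0173). Its 2 regions did not go together. The region inside the gene, 32.8 kb from a gene end (chr3:115974349-115974659, mm10), held 0.299, 0, 4.58, 2.92 and 11.1 CPM in B patches, against 65.0, 64.0, 31.5, 55.6 and 31.6 in T patches, and was called with a log2 fold change of −3.68 ± 0.80 (SE; adjusted p = 0.0189). The groups were far apart there. The region 0.2 kb from the gene end, which is shared with Extl2, held 8.43 CPM in B and 4.77 in T on average and had 0.81 ± 1.21. With regions within 10 kb of a gene end only, the gene's value is therefore 0.81 and is not called. Its called value also went to an adjusted p of 0.0602 without T patch library 1 and 0.0526 without T patch library 4. The region's own adjusted p was 0.0525 without B patch library 4 and 0.0552 without T patch library 1.

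Slc39a10, a zinc importer of the plasma membrane, had the highest summed level of all member genes in patches. It had 258.6 to 340.4 CPM over 4 regions in B patches, with a median of 304, and 295.8 to 406 in T patches, with a median of 375.2. The groups overlapped, and the fold change of −0.26 ± 0.18 on the log2 scale did not pass (edgeR adjusted p = 0.621). Slc11a1, the divalent metal carrier of phagosomes, averaged 92.9 ± 35.6 CPM in B and 93.2 ± 22.5 in T (SD over 5 libraries of each; adjusted p = 0.999). Over the 22 metal carriers the median log2 fold change was −0.09.

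**Figure D2:**
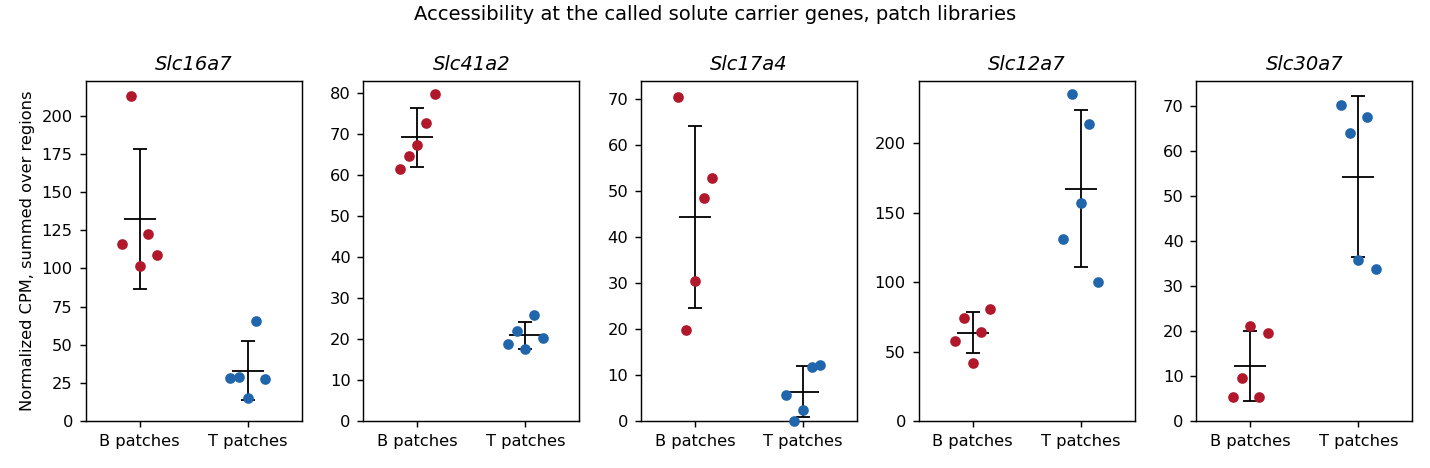
Normalized CPM summed over the regions of each of the 5 called genes, 1 point for each patch library (B left, red; T right, blue; n = 5 each), with the mean and SD in black; each axis starts at 0 and has its own scale. In all 5 genes the B and T points do not overlap: B is above T for Slc16a7, Slc41a2 and Slc17a4 and below T for Slc12a7 and Slc30a7.

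In the group of chloride, bicarbonate, sodium, proton and calcium carriers, 1 of 27 tested genes was called. Slc12a7, a cotransporter that lets potassium and chloride out of the cell and takes part in volume control, had 57.7, 73.8, 42.0, 63.7 and 80.6 CPM in B patches, against 130.8, 235.2, 156.7, 213.9 and 100.0 in T patches. The highest B library stayed below the lowest T library. The log2 fold change was −1.40 ± 0.27 (SE; edgeR adjusted p = 0.00525), and all 5 regions had a negative fold change with none called singly. With regions within 10 kb of a gene end only, the value was −2.36. The region 4.0 kb from the gene end held 5.65 CPM in B and 47.3 in T on average (−3.05 ± 0.86), and the region over the promoter printed above held 34.2 and 65.6 (−0.93 ± 0.45). Slc4a7, a sodium bicarbonate cotransporter, had 153 to 216.2 CPM in B patches, with a median of 194.9, and 108.8 to 150.1 in T patches, with a median of 129.6. Its groups did not overlap, but the log2 fold change of 0.54 ± 0.20 was not called (adjusted p = 0.157). Fold changes of the 27 genes ran from −2.19 to 0.84 with a median of −0.12, and 10 were above 0.

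Among carriers of amino acids and transmitters, 1 of 37 tested genes was called. The groups here go by family number, so a member need not carry the substrates that name its group. Slc17a4, from a family of organic anion transporters and known in human gut, had 70.4, 19.7, 30.4, 48.5 and 52.7 CPM in B patches, against 5.57, 0, 2.37, 11.7 and 12.2 in T patches. The lowest B library lay above the highest T library, and the log2 fold change was 2.79 ± 0.75 (SE; edgeR adjusted p = 0.0394). This call was lost in 6 of the 10 fits that left out 1 library: without any 1 of B patch libraries 1, 3, 4 and 5 or T patch libraries 1 and 3, the adjusted p was 0.0681 to 0.142, with fold changes of 2.56 to 2.90.

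The amino acid carriers best known from activated lymphocytes did not pass the test. Slc3a2, the heavy chain shared by several amino acid exchangers, averaged 158 ± 25.7 CPM in B and 158 ± 23 in T (SD over 5 libraries of each; edgeR adjusted p = 0.9997). Slc7a5, the light chain that carries leucine with it, averaged 37 ± 10.5 CPM in B and 32.9 ± 12.4 in T (adjusted p = 0.936), and Slc1a5, the glutamine carrier, 71.0 ± 21.8 in B and 46.8 ± 18.2 in T (adjusted p = 0.480). The sodium-coupled Slc38a2 had 326 ± 59.1 CPM in B and 296 ± 70.0 in T (adjusted p = 0.881), and Slc38a1 had 57.3 ± 25.4 in B and 79.6 ± 26 in T (adjusted p = 0.665). In each of these 5 genes the libraries of B and T overlapped. The single region of Slc7a5 also lies within 1 kb of an end of BC048644, and a region of Slc3a2 within 1 kb of an end of Snhg1. Slc7a1, the arginine carrier, had 94.9 to 148.9 CPM in B patches, with a median of 119.1, and 31.2 to 85.9 in T patches, with a median of 81.2. Its groups were apart with a log2 fold change of 0.77 ± 0.29 and an adjusted p of 0.169. Slc43a3, of a family of amino acid carriers and itself known for purine bases, was likewise apart, at 45.6 to 102.9 CPM in B and 14.8 to 44.6 in T, with a log2 fold change of 1.08 ± 0.39 and an adjusted p of 0.147.

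None of 13 tested sugar carriers, 31 mitochondrial carriers, 24 carriers of nucleosides, nucleotide sugars and acetyl-CoA, 12 carriers of vitamins, choline and heme, 4 phosphate carriers or 3 fatty acid carriers was called in patches by edgeR. Slc2a3, the high-affinity glucose carrier of leukocytes and neurons, had 295 ± 53.2 CPM in B and 238 ± 27.8 in T (SD over 5 libraries of each; adjusted p = 0.537), and Slc2a1, the widespread glucose carrier, 31.1 ± 18.5 in B and 51.4 ± 37.8 in T (adjusted p = 0.653). Slc37a1, a carrier of glucose-6-phosphate in the endoplasmic reticulum, came nearer to the threshold, at 21.2 to 58.1 CPM in B patches and 48.4 to 124.6 in T patches. Its groups overlapped, and its log2 fold change was −1.09 ± 0.34 (adjusted p = 0.0869). Slc25a42, the mitochondrial carrier of coenzyme A, averaged 246 ± 101 CPM in B and 227 ± 80.8 in T (adjusted p = 0.948). The heme carrier Slc48a1 averaged 25.4 ± 17.6 CPM in B and 33.1 ± 18.9 in T (adjusted p = 0.867), and the mitochondrial glycine carrier Slc25a38, which erythroid cells need for heme, 57.6 ± 32.6 in B and 70.6 ± 23.7 in T (adjusted p = 0.930). The erythroid Slc4a1 and Slc25a37 and the iron exporter Slc40a1 had no region. The nucleoside and nucleotide sugar carriers had 16 of 24 fold changes above 0 and a median of 0.28, and the vitamin, choline and heme carriers had 3 of 12 above 0 and a median of −0.34.

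Slc19a3, a thiamine carrier, just missed the threshold and is named after its values were seen. Its single region lies outside the gene, 38321 bases from the nearest gene end. That region had reads in 1 of 5 B patches, at 1.46 CPM, and in all 5 T patches, at 14.4, 3.20, 25.7, 23.4 and 2.88 CPM. The adjusted p was 0.0517, and with 1 library left out it ran from 0.0190 without B patch library 3 and 0.0279 without T patch library 2 to 0.157 without T patch library 3, below 0.05 in these 2 of 10 fits only. DESeq2 gave 0.000858, library size alone 0.0363 and the joint fit 1.0, and without both patch libraries numbered 2 it was 0.0140.

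A list of 33 carriers with known roles in lymphocytes had 24 genes with a region. Of these edgeR called only Slc30a7, and fold changes of the other 23 all lay within 1 log2 unit, from −0.86 to 0.77, and 10 of the 24 were above 0 with a median of −0.12. The smallest edgeR adjusted p among the 23 was 0.102, that of Slc16a1, which DESeq2 and edgeR with library size alone did call. Levels of different genes can be set side by side only per length of region counted. The 5 genes of highest summed CPM are given here, and they are not the 5 highest per length. Slc9a3r1, a scaffold protein of the cell cortex, had 343 ± 108 CPM per kb in B patches and 409 ± 49.8 in T patches. Its region also lies within 1 kb of an end of Rab37, and the reads cannot be split between the genes. Slc25a42 had 266 ± 109 and 245 ± 87.4. Slc39a10, Slc38a2 and Slc2a3 had 126 to 200.4 in either cell type, while Slc35e1, not among the 5, had 246 ± 48.5 and 256 ± 54.1 (SD, n = 5 each).

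**Figure D3:**
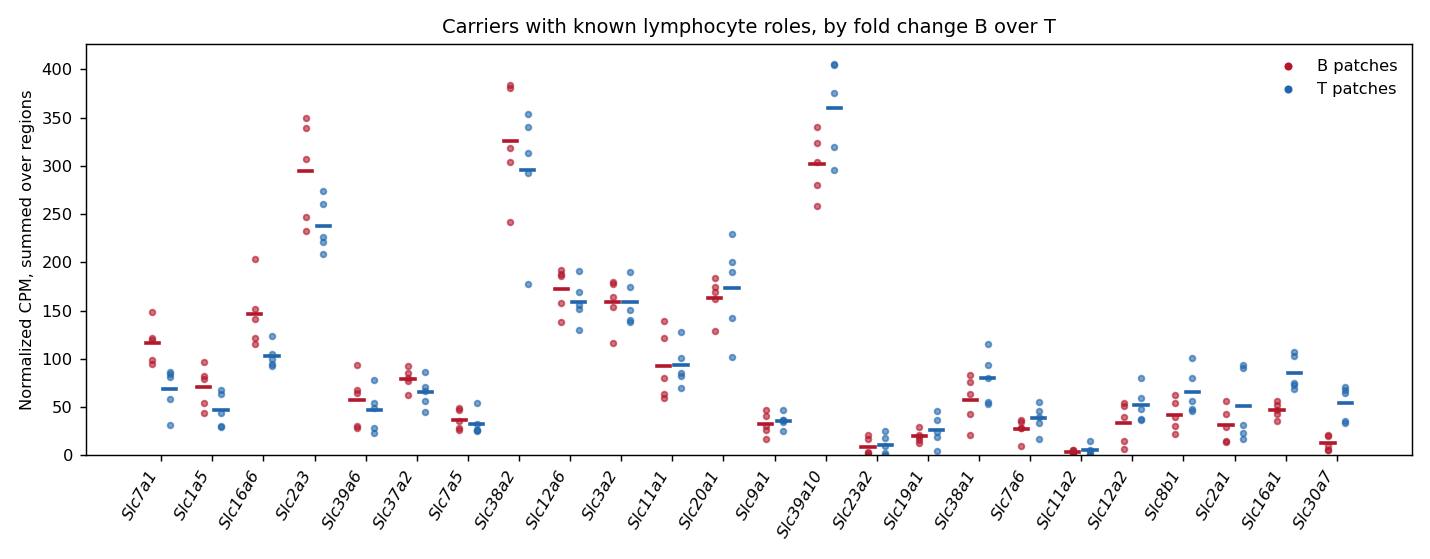
Normalized CPM summed over regions for the 24 carriers of the lymphocyte list that had a region, 1 point for each patch library and a bar at the mean (B left, red; T right, blue; n = 5 each), ordered by fold change from highest in B to lowest. Levels of different genes are not comparable here because their regions differ in number and width; within genes, Slc7a1 at the left and Slc16a1 and Slc30a7 at the right have groups that do not overlap, and only Slc30a7 was called by edgeR with TMM factors (Slc16a1 was also called by DESeq2 and with library size alone).

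Over all 189 tested members, every B patch library lay above every T patch library in 10 genes (5.29%), against 4.32% of all genes tested, and every T patch library lay above every B patch library in 7 (3.70%), against 3.85%. Beside those named above, Slc26a6, Slc28a3, Slc30a6 and Slc6a13 had B apart above T, and Slc24a3, Slc35f2 and Slc44a5 had T apart above B, none of them called by edgeR (adjusted p 0.0793 to 0.520). A fold of 2 or more in either direction was seen in 36 of the 189 genes (19%), of which 31 were not called, against 20.3% of all genes tested.

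**Figure D4:**
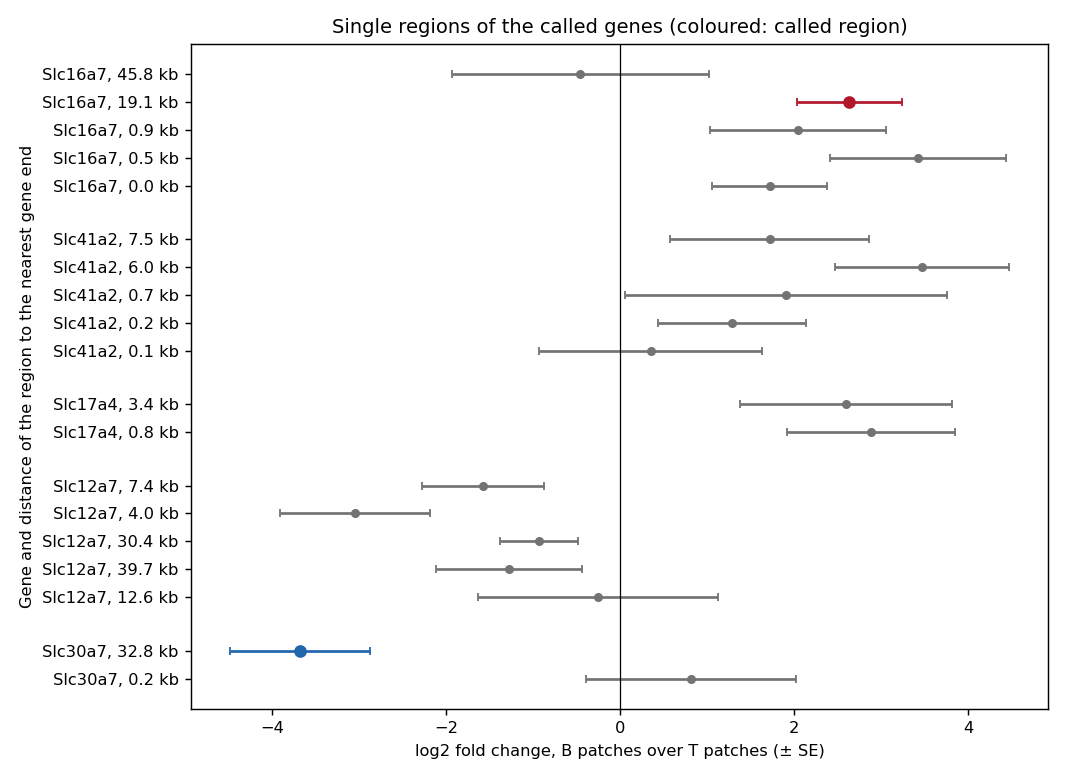
Log2 fold change of B patches over T patches with its standard error for each tested region of the 5 called genes, in order along the chromosome within a gene and labelled by the distance to the nearest gene end. The 2 regions called by themselves are coloured: 1 of Slc16a7 at 2.63 (red, higher in B) and 1 of Slc30a7 at −3.68 (blue, higher in T); the single grey regions of a gene mostly lie on the same side of 0 as its sum.

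At 100 nuclei, no member gene and no member region was called by edgeR. Of all genes tested 3 were called (0.0221%), and of all regions 4 (0.0156%). At an unadjusted p under 0.05 there were 11 of 189 member genes (5.82%), against 5.09% of all genes. DESeq2 called 1 member gene there, Slc16a7. Reads were sparse: 36 of 193 member genes had reads in all 4 B libraries and 8 in all 4 T libraries, while 15 had none in any of the 8. Reads in all 8 libraries were found for 7 members, Slc22a5, Slc25a38, Slc25a51, Slc2a3, Slc35e2, Slc38a2 and Slc3a2. T libraries 3 and 4 had reads in only 56 and 31 member regions.

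Slc16a7 was read in every B library of 100 nuclei and in no T library. Its counts were 71, 43, 36 and 60 in the B libraries (138.3, 82.7, 60.04 and 155.1 normalized CPM), against 0 in each of the T libraries. T libraries 1 and 2, which had reads in 127 and 126 member regions, as many as the B libraries with 94 to 128, also had 0. The 210 counts of 2520428 in B come to 83.3 CPM, and 0 of 3014244 in T allows up to 0.995 CPM at 3 counts over the group. The B level was 83.7-fold that limit. This value covers the counting error of the T zeros only. It takes the B counts as they stand, so it is not a lower limit of the ratio. Reads without molecular identifiers are also not independent molecules. The value depends on the libraries pooled. It was 55.5-fold without T library 1 and 53.8-fold without T library 2, the lowest. Without B library 1 it was 70.8-fold, and without B library 3 it was 93.4-fold, the highest. The edgeR adjusted p was 0.513. It was the only member with reads in all 4 B and no T libraries.

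The other called genes gave fewer readings. Slc41a2 had 0, 0, 77 and 6 counts in the B libraries and 0 in each T library, and Slc17a4 had 66, 0, 0 and 5 in B against 0, 1, 0 and 0 in T. Slc12a7 had 50, 59, 72 and 0 counts in B and 177, 82, 283 and 0 in T, and its groups overlapped. Slc30a7 had 0 in each B library and 0, 20, 0 and 0 in T. All 5 genes called in patches had the same sign of fold change at 100 nuclei, as did 87.0% of the 562 genes called in patches over the whole table that had reads at 100 nuclei. Over members called or not, 104 of 177 with reads had the same sign (58.8%), against 57.5% of all genes.

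**Figure D5:**
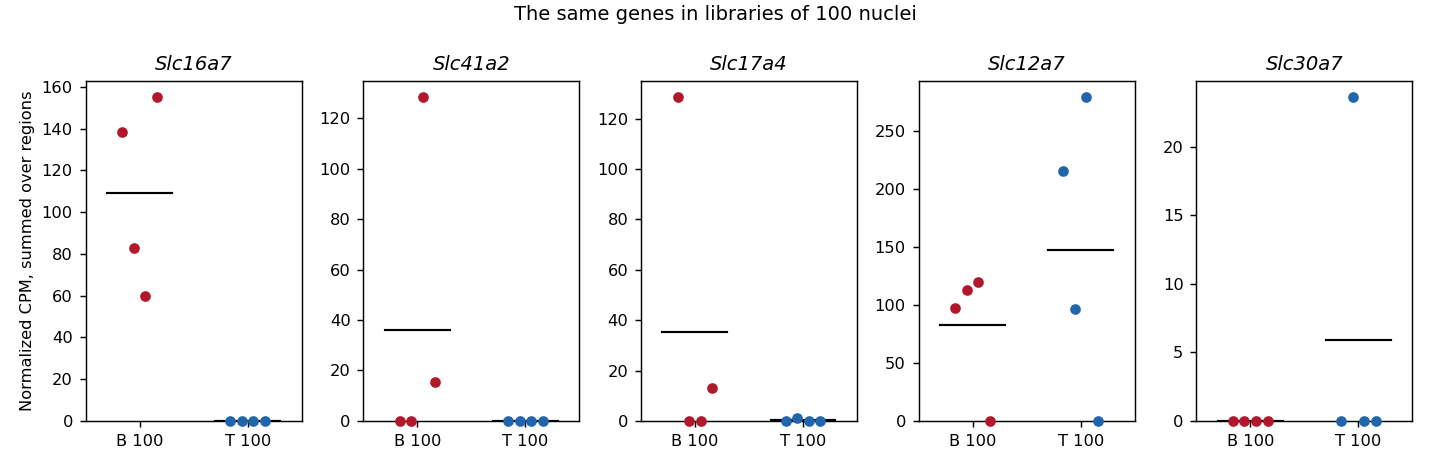
Normalized CPM summed over the regions of the 5 genes called in patches, 1 point for each library of 100 nuclei (B left, red; T right, blue; n = 4 each), with a black line at the mean; each axis starts at 0 and has its own scale. Slc16a7 has all 4 B libraries at 60.04 CPM or more and all 4 T libraries at 0, while each of the other 4 genes has at least 1 library at 0 in both groups.

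Every B library lay above every T library in 2 of 189 members at 100 nuclei (1.06%), Slc16a7 and Slc44a2, against 1.95% of all genes, and T above B in 0, against 0.347%. Slc44a2, a choline carrier of the plasma membrane and mitochondria, had 70.1, 159.5, 103.4 and 85.3 CPM in B against 37.8, 68.5, 0 and 0 in T. In patches its log2 fold change was −0.08 ± 0.31 with overlapping groups, so the separation was not seen there.

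The B over T difference itself was tested between capture sizes in 1 fit of all 18 libraries. It differed for 1 of 189 members, Slc16a7 (edgeR adjusted p = 0.0363), against 0.642% of all genes. B was above T at both sizes, and the difference rests on T patches with 15.2 to 65.8 CPM against T libraries of 100 nuclei at 0. With library size alone in place of TMM factors no member passed.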

How the data were processed

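The authors deposited 1 table of raw whole-number counts of reads for regions of build mm10, with 1 column for each of the 18 libraries. The submitters' processing notes list Bowtie2 2.4.5 and MACS2 2.2.7.1, with SAMtools 1.14 and Picard, R 4.1.0 and deepTools 3.5.2, and Trimmomatic 0.36 and bcl2fastq 2.20, with no order or role. The sources used here do not say what each did, how duplicates were handled or whether cut sites were shifted. Whether region starts count from 0 or 1 is not given either, and coordinates are printed as in the file.

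Regions were given the gene with the nearest end within 50 kb (RefSeq gene table, GRCm38.p6, whose coordinates are those of mm10), which assigned 93.3%; 15 member ties went to the gene end nearest the region's midpoint. Counts were summed per gene. Tests used edgeR 4.0.16 in R 4.3.3 with TMM factors, filterByExpr at a minimum count of 10 over the 4 groups, the quasi-likelihood test and Benjamini-Hochberg adjustment at 0.05 over all genes or regions, on the groups compared. Standard errors are the fold change over the square root of F. Normalized CPM use TMM-scaled library sizes. The scripts were tested on simulated data.

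Members, lists and motifs were chosen with earlier results of these data known. Named genes are those called, those of at least median abundance with groups apart (up to 6 each way), the 5 highest and those with most regions, a lymphocyte list and 6 erythroid and macrophage carriers; the text gives the first set in full and examples of the rest. Alternatives were DESeq2 1.42.0, other scalings, filters and windows, a replicate block, a joint fit and left-out libraries.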

Additional observations from a re-analysis of the deposited data

Results flagged for a closer look

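Slc16a7 differed between the capture sizes in B over T, with an edgeR adjusted p of 0.0363 in the test of the difference itself. Of the 87 genes called in that test over the whole table, 82 went the same way as Slc16a7. The other entries are single libraries that lay far from the rest of their group. Such a library was found in 12 of the 66 groups of values examined. The rule used, Dixon's Q, gives about 1 in 20 by chance only for normally spread values. A group with reads in 1 library and 0 in the others is always flagged. The count therefore cannot be set against chance.

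For Slc16a7, B patch library 2 stood at 213.0 CPM above the other B patches and T patch library 4 at 65.8 CPM above the other T patches. At 100 nuclei, 1 library with reads among libraries at or near 0 stood apart for Slc41a2 (B library 3, 128.4 CPM), Slc17a4 (B library 1, 128.5 CPM, and T library 2, 1.18 CPM) and Slc30a7 (T library 2, 23.6 CPM).

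In patches, B library 2 was low for Slc25a42 (71.2 CPM) and at 0 for Slc25a38. T patch library 3 was high for Slc7a5 (54.4 CPM), T patch library 2 was high for Slc48a1 (65.6 CPM), and B patch library 3 was the one B library with reads for Slc19a3 (1.46 CPM). T patch library 2 also had reads in only 254 member regions.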

How the results depend on the processing

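Counts of called members depended on the tool and the fit, and so did the shares over all features. In patches, DESeq2 called 13 genes (6.88%, all genes 8.12%), 4 of them higher in B, and 16 regions (4.94%, all regions 8.22%). Library size alone called 9 genes, and the joint fit of all 18 libraries 0 genes and 0 regions, as over the whole table. The 10 kb window left 3 called genes (1.69%, all genes 2.70%) and regions within 1 kb of a gene end left 0; Slc12a7 has no region there and so no value. Leaving out 1 library in turn gave 4 to 8 genes, with 8 without T patch library 2 (4.23%, all genes 5.06%), and 0 to 4 regions, with 4 without T patch library 2, 1 without T patch library 3 and 0 without T patch library 1 or B patch library 4. Without both patch libraries numbered 2, chosen after seeing the data, 11 genes (5.82%, all genes 7.50%) and 8 regions (2.47%, all regions 4.50%) were called. At 100 nuclei the joint fit called 34 genes (18%, all genes 14.1%) and 93 regions (28.7%, all regions 27%), and DESeq2 1 gene (0.565%, all genes 0.823%). Leaving out any 1 library there, or both T libraries with the fewest regions read, gave 0. For the difference between capture sizes, DESeq2 called 23 genes (12.2%, all genes 10.1%) and library size alone 0 (all genes 0.229%). The cause was not tested.

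Library size alone moved the median log2 fold change of all genes in patches to −0.20. Slc16a7, Slc41a2 and Slc12a7 kept their calls without any 1 of the 10 libraries. Slc30a7 reversed to 0.81 with the 10 kb window and to 0.81 within 1 kb of a gene end, since its called region lies farther away. Other reversals were in genes not called under any of these settings. Slc39a10 went to 1.42 with the 10 kb window and Slc2a3 to −0.14 within 1 kb. With library size alone, Slc38a2 went to −0.026, Slc25a42 to −0.062 and Slc3a2 to −0.17. Slc3a2 also went to −0.0044 with DESeq2, −0.0043 with the block and −0.090 with the joint fit. Slc11a1 went to 0.0082 with DESeq2 and 0.033 with nuclear regions only, and Slc48a1 to 0.13 without both libraries numbered 2. Leaving out 1 library gave values on both sides of 0 for Slc38a2 (−0.016 to 0.23), Slc25a42 (−0.087 to 0.35), Slc3a2 (−0.064 to 0.092), Slc11a1 (−0.19 to 0.12), Slc48a1 (−0.86 to 0.0010) and Slc25a38 (−0.47 to 0.028).

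The replicate numbers pair nothing by the labels, and same-numbered libraries correlated at −0.0002 to 0.042 in their deviations from the group means. With the number as a block, 5 genes and 0 regions were called in patches, with Slc37a1 (adjusted p = 0.0444) in and Slc30a7 (0.0705) out, and 0 of each at 100 nuclei. At 100 nuclei only 7 of the 193 member genes had reads in every library. B library 4 (603010 counts, 45.8% of them mitochondrial) and T library 3 (602907 counts, 31.7% mitochondrial) had reads in 125 and 56 member regions. Their totals were close, but T library 3 had more counts outside mitochondrial DNA than B library 4. It had reads in fewer member regions all the same, and the cause was not tested.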
